A study of Mus musculus with 2 samples.

Results

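Acylceramides and their sphingolipid relatives form the water barrier of the skin, and 30 genes of their synthesis, oxidation, export and breakdown were compared between newborn mouse skin without the phospholipase gene Pla2g4e and wild-type skin. The 30 genes were taken by name from a list of the pathway and were found through the gene name that the array design gives to each probe outside the controls. They had 39 probes among 39422 on the array, 9 genes with 2 probes and 21 with 1, and all 39 were well above background in both pools. They stood among 19384 genes measured on both arrays. Knockout skin was Pla2g4e-/- and control skin Pla2g4e+/+, both of strain C57BL/6N and taken at P0, the day of birth. Each genotype had 1 array, loaded with RNA pooled in equal amounts from the skin of 5 animals.

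Ceramides are built from serine and palmitoyl-CoA by serine palmitoyltransferase, and a fatty acid is then joined to the sphingoid base by a ceramide synthase. In the upper epidermis that fatty acid is drawn out to an ultra-long chain, hydroxylated at its end and esterified with linoleate, which gives an acylceramide. Acylceramides are glucosylated, loaded into lamellar granules, secreted, oxidised by lipoxygenases and bound to the proteins of the cornified cells. Pups that lack key enzymes of this route lose water through the skin soon after birth.

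The targeted gene and the make-up of the pools were examined first. The brighter Pla2g4e probe had an unscaled signal of 320 in the knockout pool and 662 in the wild-type pool, a scaled level of 51.4% of wild type. Its dimmer probe had 11.7 in the knockout pool and 10.6 in the wild-type pool, where it was not well above background. Which exons were removed is not stated in the labels, so a probe outside them would say nothing about the genotype. The Y-linked gene Ddx3y had an unscaled signal of 2.36 in the knockout pool, not well above background, and 2893 in the wild-type pool. Xist, the RNA that silences an X chromosome, was 3.87-fold higher in the knockout pool. The pools were thus unlike in sex, and sex, array position and genotype cannot be told apart in any difference given here. The 30 genes lie on 14 chromosomes, and 0 of their probes lie on X or Y. With 1 pool per genotype there was no replicate error, no test was run, and the number of arrays limits the precision. A difference below is log2 of the scaled signal in the knockout pool minus that in the wild-type pool, while a signal is the unscaled processed intensity in arbitrary units. Scaling to the 75th percentile, which was 2096 in the knockout array and 2233 in the wild-type array, adds 0.09 to every log2 difference of unscaled signals. The scanner software's own error of a difference had a median of 0.20 log2 and leaves out the animals. It was 0.20 for nearly every bright gene below, so 2 such errors act as a nearly fixed cut and not as each gene's own spread. Over 399 probes printed 10 times, the SD of the difference among spots was smaller, with a median of 0.05 log2.

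Cell type markers set the frame for these whole-skin values, in which fewer cells of a type and less RNA per cell cannot be told apart. All 7 basal keratinocyte markers were measured, with a summed level of 224 in the knockout pool and 216 in the wild-type pool, in units of each array's 75th percentile. Of 10 markers of granular and cornified keratinocytes, 9 were measured and summed to 385 in the knockout pool and 366 in the wild-type pool. Markers of hair matrix, shaft and inner root sheath differed most clearly, with 7 of 9 at least 1.5-fold lower. Their sums were 91.0 in the knockout pool and 143 in the wild-type pool, and Krt71 made up 43.2% of the wild-type sum. The 8 sebocyte markers summed to 1.63 in the knockout pool and 1.77 in the wild-type pool, with Mogat2 at 1.22 log2, Awat2 at -0.61 and Soat1 at -0.90 the 3 past 1.5-fold. Endothelial markers (6 of 6) summed to 4.84 in the knockout pool and 3.74 in the wild-type pool, and muscle markers (7 of 7) to 513 in the knockout pool and 408 in the wild-type pool. White adipocyte markers (4 of 5) summed to 59.3 in the knockout pool and 68.0 in the wild-type pool. Neutrophil markers (6 of 7) summed to 54.9 in the knockout pool and 56.4 in the wild-type pool, and the Csf3r probe alone made up 99.3% of the wild-type sum. Without Csf3r the neutrophil sums were 0.537 in the knockout pool and 0.416 in the wild-type pool. The dim neutrophil markers Mmp8 (5.88-fold), Cxcr2 (3.79-fold) and Ngp (2.01-fold) were the 3 past 1.5-fold, all higher in the knockout pool. The part of these shifts in the values below was not tested.

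Of the 30 barrier sphingolipid genes, 27 differed by less than 1.5-fold between knockout and wild-type skin, and 3 by more. Degs2, the ceramide hydroxylase, and Acer2, a ceramidase of the Golgi, exceeded the wild-type pool by at least 1.5-fold, and Sgms2, a sphingomyelin synthase, was lower by at least that fold. These were 2 of 30 genes higher and 1 of 30 lower by that fold, while 6.73% of all measured genes were higher and 4.49% lower. Among all genes brighter than the median of measured genes, as 23 of the 30 were, these shares were 4.1% and 2.43%, and 1 of those 23 was higher (Degs2) and 0 lower. The other 27 genes lay between -0.21 and 0.45 log2. Acer2 alone reached 2-fold, a size that 2.23% of all genes reached in that direction.

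**Figure D1:**
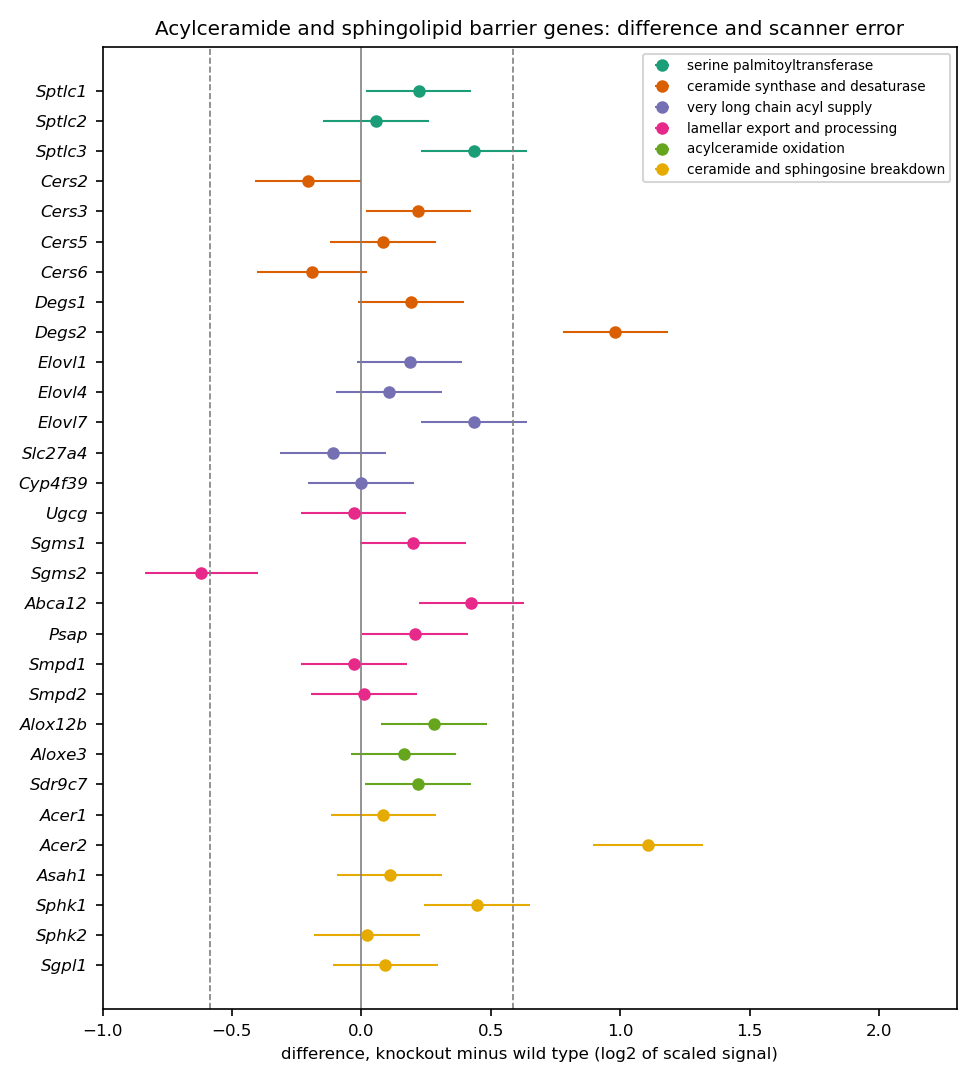
Difference between the knockout and wild-type pools (log2 of scaled signal, x axis) for each of the 30 genes, coloured by step, with bars for the scanner software's error and dashed lines at 1.5-fold. Acer2 at 1.11 and Degs2 at 0.98 stand apart on the right and Sgms2 at -0.62 on the left, while the other 27 lie between -0.21 and 0.45.

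Small differences leaned toward the knockout pool. Of the 30 genes, 23 were above 0, whereas 51.8% of all measured genes were. The median of the 30 was 0.14 log2, against 0.01 over all measured genes, and their middle 50% ran from 0.01 to 0.22. Keratinocyte markers lay on the same side, with 6 of 7 basal markers above 0 at a median of 0.24 and 7 of 9 granular and cornified markers above 0 at a median of 0.05. The brightest basal markers were level, with Krt5 at -0.05 and Krt14 at 0.00. The 4 Trp63 probes ran from -0.66 to 0.30, and with the mean of probes the basal median was 0.09. The part of the keratinocyte markers in the lean was not tested. A median of 0.14 is below the scanner error of 0.20 for a single gene. By over 2 scanner errors, 6 genes were higher (Acer2, Degs2, Sphk1, Elovl7, Sptlc3 and Abca12) and Sgms2 was lower, next to 11.2% of all measured genes higher and 7.82% lower.

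**Figure D2:**
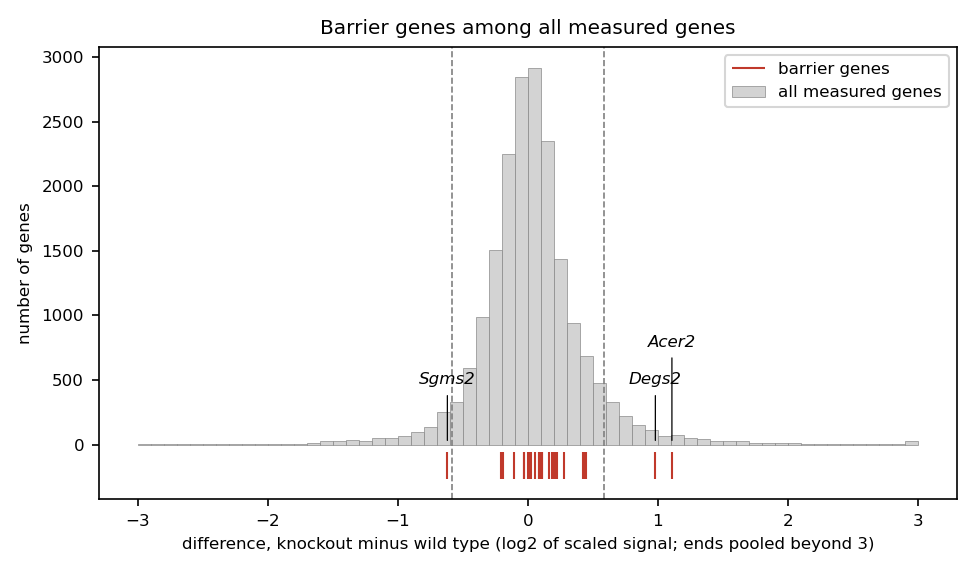
Number of measured genes (y axis) by difference between the knockout and wild-type pools (x axis, log2 of scaled signal), with a red tick under the axis for each of the 30 barrier genes and dashed lines at 1.5-fold. The ticks gather just right of 0, where their median is 0.14, and Degs2, Acer2 and Sgms2 lie outside the dashed lines.

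At the entry of the pathway, the listed subunits of serine palmitoyltransferase lay above 0 at their brightest probes and under 1.5-fold. Sptlc1, the subunit shared by all forms of the enzyme, had a signal of 4465 in the knockout pool and 4081 in the wild-type pool, a difference of 0.22 log2. Sptlc2, the main catalytic subunit, had 510 in the knockout pool and 523 in the wild-type pool, and after scaling differed by 0.06 log2. Neither value exceeds its scanner error by much. Sptlc3, a catalytic subunit that widens the range of chain lengths, had 2645 in the knockout pool and 2084 in the wild-type pool, a difference of 0.44 log2 or 1.35-fold. A second, dim Sptlc3 probe gave 0.12 with a scanner error of 0.40.

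Among the ceramide synthases in the list of 30, no gene reached 1.5-fold in either direction. Cers4, outside that list, was lower by more than that fold, at -0.81 log2. Cers3, the synthase that takes ultra-long chains in keratinocytes, had a signal of 29698 in the knockout pool and 27160 in the wild-type pool, 0.22 log2 higher, and its second probe gave 0.38. Cers2, which prefers very long chains, had 2285 in the knockout pool and 2808 in the wild-type pool, a difference of -0.21. Both lay about 1 scanner error from 0, on opposite sides. Cers5, a synthase of long-chain ceramides, had 11473 in the knockout pool and 11534 in the wild-type pool, a difference of 0.08. Cers6, of similar chain preference, had 93.3 in the knockout pool and 113 in the wild-type pool, a difference of -0.19. The listed synthases thus showed no common direction.

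The desaturase step held the clearest difference among the bright genes of the list. Degs1, which puts the double bond into dihydroceramide, and Degs2, which also hydroxylates it to give the phytoceramides of skin, were read by 1 probe each. The first 30 of the 60 bases of each are shown because these sister genes differed in response, and lie on mm9 chromosome 12 (probe at 109928501 to 109928560) for Degs2 and chromosome 1 (184206280 to 184206339) for Degs1.
Degs2 probe A_51_P122649: gatacagagtaaccaggcttacctgaactt
Degs1 probe A_51_P498890: ttataagtctcgggaaactgatgaaattct
The Degs2 probe was printed 10 times on each array. Its spots ranged from 6975 to 7822 with a median of 7518 in the knockout pool, and from 3726 to 4214 with a median of 4090 in the wild-type pool. Every knockout spot was above every wild-type spot, but how many of the 399 probes printed 10 times separate in this way was not counted. Spots of such probes vary little (median SD of the difference 0.05 log2), so a small difference could separate them too. The mean over spots was 7425 ± 280 in the knockout pool and 4010 ± 189 in the wild-type pool (SD, 10 spots each, technical repeats of 1 pool). Over spots the scaled difference came to 0.98 ± 0.02 log2 (SD, n = 10 spots), or 1.97-fold, and its scanner error to 0.20. Degs1 had 22017 in the knockout pool and 20555 in the wild-type pool, a difference of 0.19 log2 that is smaller than its scanner error. Over all measured genes, 2.35% were as far above 0 as Degs2.

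**Figure D3:**
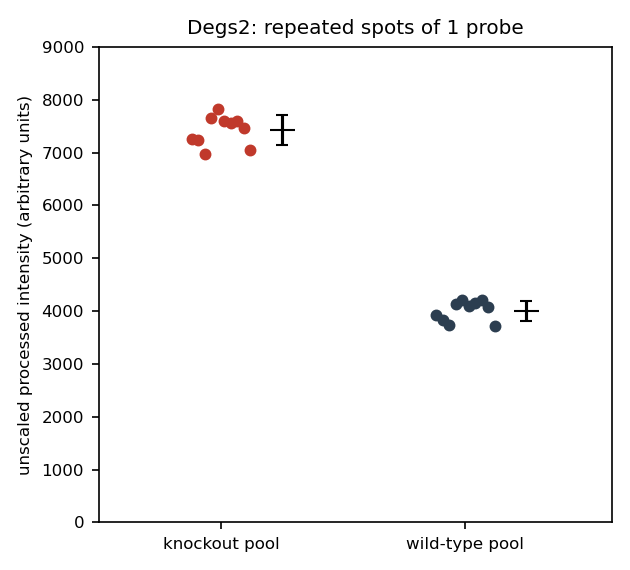
Unscaled processed intensity (y axis, arbitrary units, from 0) of the 10 spots of the Degs2 probe in the knockout pool (left) and the wild-type pool (right), with the mean and SD over spots beside each cloud. The knockout spots lie between 6975 and 7822 and the wild-type spots between 3726 and 4214, without overlap.

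The bases before the start of each sister gene are given next, since the desaturases differed. They are the 250 bases upstream of the annotated start in RefSeq on GRCm38.p6, chr12:108702307-108702556 on the minus strand for Degs2 and chr1:182282196-182282445 on the minus strand for Degs1. Capitals mark matches on either strand to any of 5 motifs, where N is any base and overlapping matches were kept. The TATA box was searched for as the letters TATAAA. The site of AP-1, a factor of keratinocyte differentiation, was searched for as TGANTCA. The site of the grainyhead-like factors, which govern barrier formation, was searched for as AACNGGTT. The core site of nuclear receptors was searched for as AGGTCA. The GC-rich box of Sp and Klf factors was searched for as GGGNGGGG.
Degs2 promoter: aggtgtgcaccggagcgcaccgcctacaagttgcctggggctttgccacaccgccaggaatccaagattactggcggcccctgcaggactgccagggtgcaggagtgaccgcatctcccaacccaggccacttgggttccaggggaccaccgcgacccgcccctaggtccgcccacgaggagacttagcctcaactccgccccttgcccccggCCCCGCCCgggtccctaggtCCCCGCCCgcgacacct
Degs1 promoter: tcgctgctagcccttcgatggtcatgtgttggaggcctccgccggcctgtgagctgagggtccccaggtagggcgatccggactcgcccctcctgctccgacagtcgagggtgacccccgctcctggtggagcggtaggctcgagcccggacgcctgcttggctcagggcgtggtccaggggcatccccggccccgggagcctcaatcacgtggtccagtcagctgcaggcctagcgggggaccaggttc
The Degs2 window held 2 matches to the GC-rich box and the Degs1 window 0. Over all 32851 promoters of this length, 30.8% held at least 1 such match. A match is a description of these letters and says nothing about binding.

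None of the acyl chain genes in the list of 30 reached 1.5-fold. Outside that list, Elovl2 (2.02 log2) was higher and Elovl3 (-1.13) and Elovl6 (-0.75) were lower by more than that fold. Elovl1, the elongase of saturated very long chains, had a signal of 106162 in the knockout pool and 99441 in the wild-type pool, a difference of 0.19 log2. Elovl4, which makes the ultra-long chains of acylceramide, had 34439 in the knockout pool and 34075 in the wild-type pool, a difference of 0.11. Their second probes gave 0.21 for Elovl1 and 0.16 for Elovl4, so that the probes of each gene differed by less than the scanner error. Elovl7, another elongase of long chains, had 22486 in the knockout pool and 17712 in the wild-type pool, 0.44 log2 or 1.35-fold higher. Slc27a4, the fatty acid transport protein whose loss causes tight, thick skin in newborn mice, had 257 in the knockout pool and 296 in the wild-type pool, a difference of -0.11. Cyp4f39, the mouse cytochrome that hydroxylates the chain end, had 902 in the knockout pool and 962 in the wild-type pool, a difference of 0.00. The difference of Elovl7 was the widest among the listed genes of this step.

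Genes of lamellar granule loading and lipid processing included the 1 lower gene of the list. Abca12, the lipid transporter of lamellar granules that is mutated in human harlequin ichthyosis, had a signal of 4740 in the knockout pool and 3762 in the wild-type pool, 0.42 log2 or 1.34-fold higher. Ugcg, which adds glucose to ceramide, had 2275 in the knockout pool and 2476 in the wild-type pool, a difference of -0.03. Psap, the precursor of the saposins that help strip sugars from glucosylceramide, had 15215 in the knockout pool and 14045 in the wild-type pool, a difference of 0.21. Of these, Abca12 alone lay more than 2 scanner errors from 0. Smpd1, the acid sphingomyelinase, had 31085 in the knockout pool and 33789 in the wild-type pool, a difference of -0.03. Smpd2, a neutral sphingomyelinase, had 800 in the knockout pool and 847 in the wild-type pool, a difference of 0.01. Ugcg and both sphingomyelinases were thus level after scaling.

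The sphingomyelin synthases, which turn ceramide into sphingomyelin, lay on opposite sides of 0. Sgms2, the form at the plasma membrane, had a signal of 53.4 in the knockout pool and 87.3 in the wild-type pool, and Sgms1, the Golgi form, had 10307 in the knockout pool and 9569 in the wild-type pool. Sgms2 differed by -0.62 log2, with a scanner error of 0.22, or 65.1% of the wild-type level, and Sgms1 by 0.20. The Sgms1 difference did not exceed its scanner error. With normexp background correction the Sgms2 difference was -0.25, which ends the 1.5-fold call. The Sgms2 probe, shown by the first 30 of its 60 bases for that reason, lies on mm9 chromosome 3 at 131025871 to 131025930.
Sgms2 probe A_51_P211998: taaaatgaagtggaccaaattttatgcaaa
Sgms2 was read by this 1 probe alone.

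**Figure D4:**
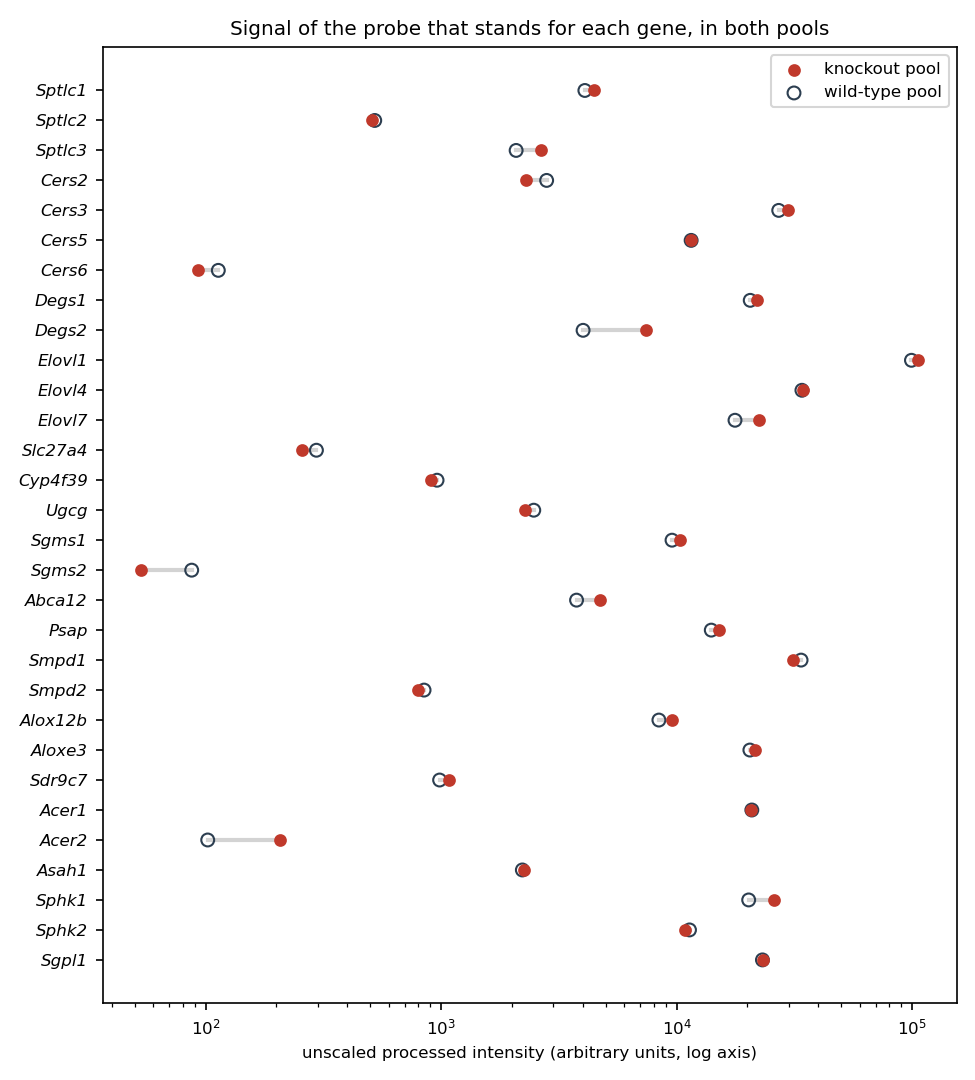
Unscaled processed intensity (x axis, log scale, arbitrary units) of the probe that stands for each gene, with filled red points for the knockout pool and open points for the wild-type pool. The points of a gene nearly coincide in most rows, and they lie visibly apart for Degs2 (7425 and 4010), Acer2 (207 and 102) and Sgms2 (53.4 and 87.3), knockout value first, while rows should not be set against each other.

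The 3 genes of acylceramide oxidation all had differences above 0, and none reached 1.5-fold. Alox12b, the lipoxygenase that starts the oxidation of the linoleate group, had a signal of 9596 in the knockout pool and 8417 in the wild-type pool, a difference of 0.28 log2. Its second probe gave 0.16. Aloxe3, which isomerises the product of Alox12b, had 21524 in the knockout pool and 20485 in the wild-type pool, a difference of 0.16. These neighbouring genes have probes 20.6 kb apart on mm9 chromosome 11. Sdr9c7, the dehydrogenase that acts after both, had 1077 in the knockout pool and 986 in the wild-type pool, a difference of 0.22. The values lay between 0.8 and 1.37 scanner errors from 0.

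Of the listed genes that break ceramide down, Acer2 stood apart from the ceramidases Acer1 and Asah1. Outside the list, the neutral ceramidase Asah2 stood at 0.43 log2 at its brighter probe and 0.82 at the other, and Acer3 at -0.18. Acer2, the alkaline ceramidase of the Golgi, had a signal of 207 in the knockout pool and 102 in the wild-type pool at its brighter probe. The dimmer probe had 56.9 in the knockout pool and 33.3 in the wild-type pool. Both probes were higher in the knockout pool, by 1.11 log2 (2.16-fold, scanner error 0.21) and 0.86 log2 (scanner error 0.25). With normexp the brighter probe gave 0.77, still past 1.5-fold. Acer1, the alkaline ceramidase of the upper epidermis, had 20783 in the knockout pool and 20876 in the wild-type pool, a difference of 0.08. Asah1, the acid ceramidase of lysosomes, had 2242 in the knockout pool and 2215 in the wild-type pool, a difference of 0.11, and 0.19 at its second probe. Neither Acer1 nor Asah1 exceeded its scanner error, whereas 1.85% of all measured genes lay as far above 0 as Acer2.

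The Acer2 probes lie on mm9 chromosome 4 at 86533009 to 86533068 for the brighter and 86546424 to 86546483 for the dimmer, and their first 30 of 60 bases are shown because both carry the difference.
Acer2 brighter probe A_55_P2367463: tgtgtgctttggccatgtggtttcccagga
Acer2 dimmer probe A_55_P2367461: ttacaacgtgcttggcgtttatcaagcccg
The upstream windows of Acer2 and of its level sister Acer1 follow with the same capitals, chr4:86874164-86874413 on the plus strand for Acer2 and chr17:56982127-56982376 on the minus strand for Acer1, from RefSeq on GRCm38.p6.
Acer2 promoter: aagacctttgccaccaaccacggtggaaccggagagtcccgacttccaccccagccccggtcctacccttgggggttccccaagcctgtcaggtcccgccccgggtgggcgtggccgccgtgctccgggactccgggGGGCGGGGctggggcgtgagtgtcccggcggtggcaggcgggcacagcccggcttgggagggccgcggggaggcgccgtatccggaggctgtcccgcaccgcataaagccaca
Acer1 promoter: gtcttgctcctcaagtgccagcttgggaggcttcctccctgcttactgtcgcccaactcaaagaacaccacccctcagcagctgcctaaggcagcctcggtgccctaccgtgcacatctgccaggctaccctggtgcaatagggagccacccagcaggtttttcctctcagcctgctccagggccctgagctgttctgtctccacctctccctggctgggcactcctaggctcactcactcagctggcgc
The Acer2 window held 1 match to the GC-rich box, and the Acer1 window held 0 matches to any of the 5 motifs.

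The listed genes that handle sphingosine and its phosphate differed little, with Sphk1 the widest. Sphk1, the sphingosine kinase that responds to growth signals, had a signal of 25886 in the knockout pool and 20245 in the wild-type pool, 0.45 log2 or 1.36-fold higher, and its second probe gave 0.43. Sphk2, the other kinase, had 10816 in the knockout pool and 11351 in the wild-type pool, a difference of 0.02. Sgpl1, the lyase that ends the pathway, had 23178 in the knockout pool and 23162 in the wild-type pool, a difference of 0.09. The probes of Sphk1 thus lay 2.19 scanner errors from 0 at the brighter, and those of Sphk2 and Sgpl1 within 1. Over the 9 genes with 2 probes, both probes had the same sign in 8, the exception being Sptlc2 near 0.

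Other genes of the pathway, from a list of 53, held 8 differences of at least 1.5-fold. Of these 53, 50 were measured on both arrays, 4 were at least 1.5-fold higher and 4 at least 1.5-fold lower, next to the 6.73% and 4.49% of all measured genes. Their median was 0.01 log2. The 4 lower were Fa2h at -1.67, which hydroxylates fatty acids for ceramide, Elovl3 at -1.13, Cers4 at -0.81 and Elovl6 at -0.75. Elovl6, the elongase of palmitate, had a signal of 8439 in the knockout pool and 15085 in the wild-type pool. Elovl3 and Cers4 are known for roles in mouse sebaceous glands and hair follicles. Beside them the markers of hair matrix, shaft and inner root sheath were lower. Of these 9 hair markers, 9 were below 0, from -1.50 (Krt34) to -0.47 (Krt71). The 8 sebocyte markers were split, 4 above 0 and 4 below, with a median of -0.06. The part of either list in the 4 lower genes was not tested.

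The 4 higher genes of that list included S1pr1 and S1pr4, which are receptors for sphingosine phosphate. The other receptors of this family lay below 0 and within 1.5-fold, S1pr2 at -0.17 log2, S1pr3 at -0.33 and S1pr5 at -0.30. Elovl2, an elongase of polyunsaturated chains, had a signal of 73.7 in the knockout pool and 19.4 in the wild-type pool, a difference of 2.02 log2 that was 0.79 with normexp. S1pr1, a receptor for sphingosine phosphate known from endothelium and lymphocytes, had 1895 in the knockout pool and 940 in the wild-type pool, a difference of 1.1. Endothelial markers were higher beside it, all 6 above 0 with a median of 0.64, although Kdr, the brightest, was about level at 0.03. The part of the endothelial markers in S1pr1 was not tested. Gm2a, the activator that presents gangliosides for breakdown, had 1571 in the knockout pool and 885 in the wild-type pool, a difference of 0.92, while its other probe gave 0.44, under 1.5-fold, and the mean of its probes 0.68. S1pr4, another receptor of this family, had 32.4 in the knockout pool and 23.0 in the wild-type pool, a difference of 0.59 that only just reached the fold, with a scanner error of 0.28. That call ends with median scaling (0.54), quantile normalization (0.51) and normexp (0.37). Nearest to 0 were Ormdl2, an inhibitor of serine palmitoyltransferase, and Plpp1, a lipid phosphatase, both at 0.00. Pnpla1 at 0.01 and Abhd5 at 0.17, which act in placing linoleate on the acylceramide, both lay less than 1 scanner error from 0.

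**Figure D5:**
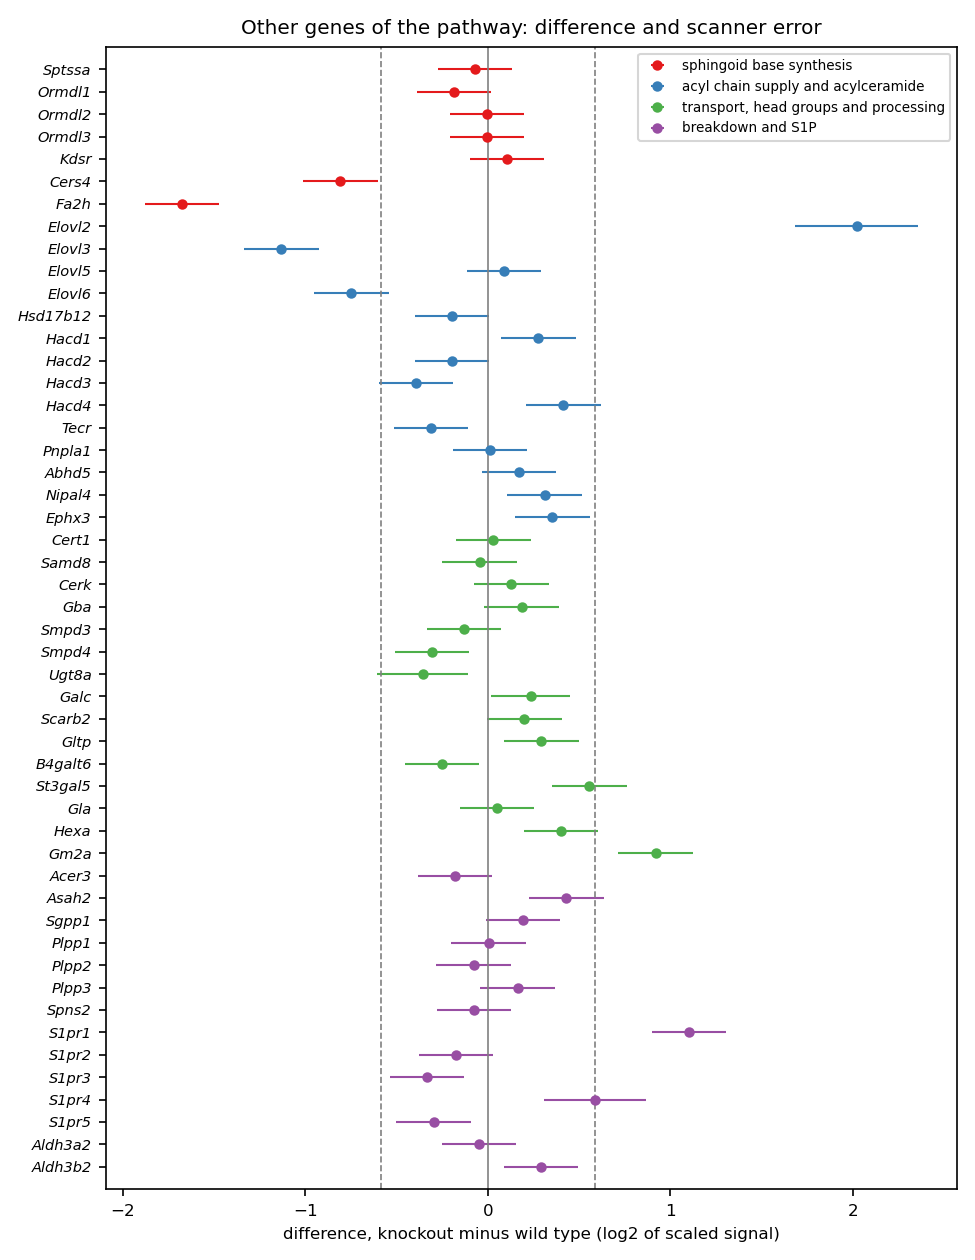
Difference between the knockout and wild-type pools (log2 of scaled signal, x axis) for the 50 measured genes of the pathway outside the list of 30, coloured by step, with bars for the scanner error and dashed lines at 1.5-fold. Fa2h at -1.67 and Elovl2 at 2.02 are the extremes, and 8 genes lie on or outside the dashed lines.

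Promoters of the 30 genes were rich in G and C. The RefSeq table held 44 promoters for 28 of them, while Aloxe3 and Asah1 were not matched. Their median share of G and C over the 250 upstream bases was 61.2%, against 52.4% over all 32851 promoters. At least 1 GC-rich box lay in 56.8% of the 44, against 30.8% of all, a nuclear receptor core site in 25% against 14.0%, an AP-1 site in 13.6% against 6.75%, a TATA box in 4.55% against 12.4% and a grainyhead-like site in 2.27% against 1.79%. Genes with alternative starts, such as Sgms2 and Sphk1, held several windows each, of which some of Sphk1 overlap, so the shares count windows and not genes. By gene, 16 of 28 held the GC-rich box, 8 the nuclear receptor core site, 4 the AP-1 site, 2 the TATA box and 1 the grainyhead-like site. The share by gene over all genes was not computed, and a gene with several windows had more chances of a match. Values over the promoters of measured genes alone were not computed either. Neither the counts by gene nor the values over windows can therefore be read as enrichment.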

How the data were processed

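The deposited scanner files hold linear processed intensity values per spot, which the authors obtained with Agilent Feature Extraction 11.5.1.1, with background subtracted and spatial trends removed, per the file headers and the submitters' processing notes. Cy3 labelling started from 200 ng of total RNA, per the labels' protocols. The deposited value table holds a ratio, the processed intensity divided by 2273 for the knockout array (median 0.0969) and by 2406 for the wild-type array (median 0.0946). It is linear and not centred by gene. The marks for spots above background or unlike their replicates come from the scanner software, per the file headers.

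Control spots and 298 outlier spots were left out, 0 spots were saturated, and spots of a probe were averaged as log2. Each array was scaled to the 75th percentile of its probes. For each gene the brightest probe was used, out of its probes that passed the background mark in both pools. Probes were named by accession (28326), symbol (2204) or synonym (174) in a RefSeq table of GRCm38.p6, which served for names and promoters, and 1754 kept the file's name. All 39 member probes had an accession of the gene they name. Well above background were 80.8% of probes on the knockout array and 78.0% on the wild-type array. Over 399 probes printed 10 times, the SD of the difference among spots had a median of 0.05 log2.

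With 1 array per group no test was run. Members were counted at 1.5-fold. Every member was named, and of the other pathway genes those past 1.5-fold and the 2 nearest 0 were named, Pnpla1 and Abhd5 being added after their values were seen. The members, lists and motifs were chosen with earlier results of these data known. A gene of the pathway list is not reported here and was left out of its counts after they had been computed. The scaling and the difference were checked on simulated probe values with known folds. Averaging of spots, the background mark, the choice of probe, naming and normexp were not covered by that check. normexp was run in limma 3.58.1, the rest in Python 3.11.15.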

Additional observations from a re-analysis of the deposited data

How the results depend on the processing

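No paired analysis was possible because each genotype had 1 array, and for the same reason no array could be left out. The median of the 30 genes stayed between 0.09 (median scaling) and 0.19 (brighter genes alone), and the count above 0 ran from 21 (median scaling) to 24 of 30, and was 20 of 23 among brighter genes alone. The count at least 1.5-fold higher was 2 under 9 of 10 alternatives and 1 among brighter genes alone, a setting that tests fewer genes and leaves Acer2 out. The count at least 1.5-fold lower was 0 with normexp, which draws dim signals together, and 0 among brighter genes alone, which leaves Sgms2 out. Degs2 ranged from 0.93 to 0.98 and Acer2 from 0.77 to 1.11. Of 293 values of single members under alternatives, 291 moved by less than the scanner error, and Acer2 and Sgms2 with normexp moved by more. Several of these alternatives could hardly move a member. The deposited value table divides the processed intensity by a constant, so rescaling returned the same values. All 39 member probes passed the background mark in both pools, so looser filters changed none of them. Median scaling shifts every gene by the same amount. The 291 thus says little about how firm a member is. For the other pathway genes the count higher was 2 among brighter genes alone and otherwise 3 to 5, and the median was -0.04 with median scaling, -0.01 with quantile normalization and -0.0033 among brighter genes alone, against 0.01. The neutrophil marker median was 0.77, while among brighter genes alone Csf3r was the 1 marker left, at -0.043. Dim probes such as those of Sgms2, Acer2 and Elovl2 lie closest to background and are the least firm.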

Other observations

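Further pathway genes, picked after their values were seen, lay within 1.5-fold at their brightest probes. St3gal5, which makes the ganglioside GM3, had a signal of 3350 in the knockout pool and 2426 in the wild-type pool, a difference of 0.56 log2. In the same direction, Hacd4, a dehydratase of fatty acid elongation, stood at 0.41 and 0.58 at its second probe. Asah2, the neutral ceramidase, stood at 0.43 at its brighter probe and 0.82 at the other, which is past 1.5-fold, as was the mean of its probes at 0.63. In the opposite direction, the dehydratase Hacd3 stood at -0.39 and Tecr, the reductase that closes the elongation cycle, at -0.31. They have no replicate check.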
